A study of Mus musculus with 8 samples.

Results

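The Hox genes encode homeodomain transcription factors that give cells their position along the body axis. The accessible chromatin of 38 Hox genes in the 4 mouse Hox clusters was described in hair follicle cells, from peaks of an ATAC-seq study (open DNA is cut by a transposase that leaves sequencing adapters behind). The genes numbered 10 in HoxA, 10 in HoxB, 9 in HoxC and 9 in HoxD. A peak was counted for a Hox gene when that gene had the protein-coding gene span nearest to the peak's midpoint, within 100 kb and with distance 0 inside the span. This assigned 372 of the 266630 peaks in the 4 lists. Peaks of different lists that overlapped by at least 1 bp were merged into sites, which gave 138 Hox sites of 114956 in all. Of the 38 genes, 37 had at least 1 site, and Hoxd12 had none.

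The study sorted 4 epithelial populations from back skin of mice of mixed sex, with 2 samples each. The telogen (resting phase) populations came from Lgr5-eGFP-ires-CreER mice at postnatal day 55, in the second telogen. Stem cells of the bulge carried GFP and CD34 (GFP+/CD34+/Itga6+/Itgb1+), and cells of the hair germ lacked CD34 (GFP+/CD34-/Itga6+/Itgb1+). The transient amplifying cells (TACs), dividing progeny that build the new hair, came from the growth phase, anagen, at postnatal day 30. Basal TACs (GFP-/CD34-/Itgb1high/Pcad+/SCA1-) were from the same strain, and suprabasal TACs (GFPlow/Itga6-/CD34-) from K14-H2BGFP mice. In the first strain GFP and CreER are made from the Lgr5 locus, and in the second a histone-GFP fusion is driven by the keratin 14 promoter. The labels name no treatment. Stage and age cannot be told apart here, and neither can the strain and the suprabasal population.

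Each population has 1 peak list, called by the authors on both samples pooled. No value below therefore has a replicate error, no test between populations was possible, and the 95% intervals given for shares (exact Clopper-Pearson) cover counting error only. The Hox peaks numbered 83 in bulge cells, 75 in hair germ, 94 in basal TACs and 120 in suprabasal TACs. The pooled alignments held 24065469, 11053351, 30824845 and 47852893 fragments in that order, so the hair germ list is the shallowest and the suprabasal TAC list the deepest. Levels are given as the authors' pileup, the number of fragments over a peak's summit, per 1000000 fragments of that alignment (FPM). Below, 4 values without names run in lineage order: bulge, hair germ, basal TACs, suprabasal TACs. Over all peaks of a list the median level was 2.29, 2.62, 1.69 and 1.04 FPM, and the median fold enrichment 7.48, 7.14, 6.71 and 4.79, so Hox levels are set beside genome-wide ones. In sorted bulk cells a lower level may come from fewer cells with the site open or from less openness per cell, which cannot be told apart.

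In mammals the Hox genes lie in the clusters in the order in which they are used along the body, with the low-numbered (anterior) genes at one end and the high-numbered (posterior) genes at the other. Polycomb proteins keep the silent part of a cluster compact, and active genes lie in open chromatin. In skin the best-known member is Hoxc13, a posterior gene of HoxC that is active in the growing hair follicle, activates hair keratin genes, and is needed for normal hair in mice. Members were grouped here as anterior (paralogs 1 to 4), central (5 to 8) and posterior (9 to 13).

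RefSeq promoter windows of GRCm38.p6 (the mm10 build), from 250 bases before to 50 after a gene's start, were matched to 22 of the members, which had 24 windows. The 4 sequences below are shown because they stand for the patterns found at Hox promoters. The Hoxa5 window (chr6:52204538-52204837, minus strand) lay in a peak of all 4 lists, with 6.61, 5.52, 4.80 and 3.28 FPM in bulge cells, hair germ, basal and suprabasal TAC lists. Hoxa5 is known for its part in lung development. The Hoxb4 window (chr11:96318017-96318316, plus strand) lay in a peak of the bulge list alone, at 2.78 FPM. Hoxb4 is known for the expansion of blood stem cells. The Hoxd10 window (chr2:74691641-74691940, plus strand) lay in a peak of both TAC lists, at 0.616 FPM in basal and 0.731 in suprabasal TACs, and in none of the telogen lists. The window of Hoxd12, a limb patterning gene (chr2:74674763-74675062, plus strand), lay in no peak, and the nearest Hox site was 5787 bp away. The windows are written 5′ to 3′ on the gene's strand with CG pairs in capitals, and they hold 29, 14, 22 and 13 CG pairs in the order shown.
Hoxa5: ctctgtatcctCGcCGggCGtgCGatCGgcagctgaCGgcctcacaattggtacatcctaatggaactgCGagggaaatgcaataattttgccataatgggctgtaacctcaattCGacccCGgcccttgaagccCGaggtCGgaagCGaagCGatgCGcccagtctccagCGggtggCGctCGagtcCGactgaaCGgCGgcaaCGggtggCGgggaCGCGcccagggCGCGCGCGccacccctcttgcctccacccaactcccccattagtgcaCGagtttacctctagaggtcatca
Hoxb4: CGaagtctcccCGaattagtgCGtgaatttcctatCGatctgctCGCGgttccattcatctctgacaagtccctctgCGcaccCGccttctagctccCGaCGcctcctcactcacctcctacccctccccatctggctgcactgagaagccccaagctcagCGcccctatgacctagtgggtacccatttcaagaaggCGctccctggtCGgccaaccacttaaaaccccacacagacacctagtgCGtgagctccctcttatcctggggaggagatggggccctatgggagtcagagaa
Hoxd10: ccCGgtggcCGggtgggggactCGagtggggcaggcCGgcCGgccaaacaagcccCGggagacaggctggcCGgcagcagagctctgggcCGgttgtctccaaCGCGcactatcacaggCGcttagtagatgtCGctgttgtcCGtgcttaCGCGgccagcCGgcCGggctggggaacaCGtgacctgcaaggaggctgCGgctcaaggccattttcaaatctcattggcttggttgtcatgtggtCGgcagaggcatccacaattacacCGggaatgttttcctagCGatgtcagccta
Hoxd12: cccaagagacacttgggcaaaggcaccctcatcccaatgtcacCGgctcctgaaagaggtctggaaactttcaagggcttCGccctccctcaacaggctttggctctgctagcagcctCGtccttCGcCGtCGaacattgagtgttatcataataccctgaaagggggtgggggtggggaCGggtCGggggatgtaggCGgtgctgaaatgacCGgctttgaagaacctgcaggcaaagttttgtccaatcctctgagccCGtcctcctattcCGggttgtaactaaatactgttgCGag

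Over all 24 Hox windows the median number of CG pairs was 14.5, against 7 over the 32851 windows of all genes. A peak covered part of 8 of the 24 windows in bulge cells (33.3%), 7 in hair germ (29.2%), 7 in basal TACs (29.2%) and 10 in suprabasal TACs (41.7%). Over all windows these shares were 43.2%, 42.1%, 45% and 44.1%. The Hox shares describe mainly HoxA and HoxD, since HoxB had windows at Hoxb1, Hoxb4 and Hoxb8 alone. HoxC had a window at Hoxc4 alone, and so none at Hoxc13. A peak of all 4 lists was found at 6 windows, those of Hoxa2, Hoxa3, Hoxa5, Hoxd1, Hoxd3 and 1 of the 2 Hoxd11 starts. No list had a peak at 13 windows, but 8 of those 13 had a Hox site within 1 kb. The 6-letter TCF/LEF core CTTTGA stood, on either strand, in 4 Hox windows (16.7%, against 16% of all windows), at Hoxa10, Hoxa11, Hoxd8 and Hoxd12. The AP-1 motif TGANTCA stood in 1 (4.17%, against 7.81%), at the Hoxd11 start that lay in no peak. Of the motifs of posterior HOX proteins, TCGTAAA stood in 2 (8.33%, against 0.597%), at Hoxb8 and the same Hoxd11 start. CAATAAA stood in 2 (8.33%, against 4.60%), at Hoxb8 and Hoxd4. The windows of Hoxb8, Hoxa11, Hoxd8 and Hoxd12 lay in no peak, and those with a motif at Hoxa10 and Hoxd4 in a suprabasal TAC peak alone. These are matches of letters in a few windows.

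Of the 138 Hox sites, 54 were held by all 4 lists (39.1%, 95% interval 30.9 to 47.8), where this was so for 27.3% of all sites. The anagen lists alone (basal TAC, suprabasal TAC or both) held 51 Hox sites, or 37.0% (28.9 to 45.6), against 40.8% of all sites. The telogen lists alone held 13, or 9.42% (5.11 to 15.6), against 15.9% of all sites. The interval of the Hox share common to the whole lineage thus lay above the genome's share. That of telogen alone ended just below the genome's, and that of anagen alone held it. These intervals treat neighbouring sites as independent, and these shares were not recomputed with the alternatives. No Hox site belonged to the hair germ list alone (95% interval 0 to 2.64%), where 2.35% of all sites do, a share within that interval. Suprabasal TACs alone held 24 (17.4%, against 15.5% of all sites) and basal TACs alone 11 (7.97%, against 14.5%). The bulge alone held 8 (5.80%, against 6.74%), and both TAC lists but no telogen list 16 (11.6%, against 10.8%). The genome's share lay within the 95% interval for each of these but basal TACs alone (4.05 to 13.8).

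The clusters were densely accessible. Peaks covered between 6.21% (HoxD, hair germ) and 17.5% (HoxA, suprabasal TAC) of the bases between the outermost genes of a cluster. Over all protein-coding gene spans the peaks covered 2.85% in bulge cells, 2.37% in hair germ, 3.45% in basal TACs and 3.26% in suprabasal TACs. Those spans were not matched to the clusters for gene density. HoxA was covered by 14.7%, 12.3%, 14.0% and 17.5% in bulge cells, hair germ, basal and suprabasal TACs. HoxB was covered by 12.7%, 8.38%, 11.8% and 12.2%, and HoxC by 10.3%, 9.79%, 11.8% and 12%. HoxD had 7.14%, 6.21%, 8.27% and 13.1%, the lowest share of the 4 clusters in the first 3 populations but above HoxB and HoxC in suprabasal TACs. Summit levels were not raised in the same way. At the 54 Hox sites common to all lists the medians were 2.58, 2.99, 1.56 and 1.39 FPM in lineage order, each below the genome's 4.16, 4.25, 3.11 and 1.88 at its 31420 common sites.

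In the lists as deposited, the site number differed most between populations in HoxC. HoxA held 18, 16, 18 and 24 sites in bulge cells, hair germ, basal TAC and suprabasal TAC lists. HoxB held 29, 23, 29 and 33, and HoxD 12, 10, 9 and 15. HoxC held 23 and 22 in the telogen populations and 35 and 40 in basal and suprabasal TACs. The difference lay in the posterior genes of that cluster, Hoxc9 to Hoxc13, which had 7, 9, 20 and 27 sites. The central genes Hoxc5, Hoxc6 and Hoxc8 together had 7 in every list, and the anterior gene Hoxc4 had 9, 6, 8 and 6. With equal numbers of peaks per list (the strongest by q-value), HoxC held 23, 22, 21 and 27 sites, HoxB 27, 23, 17 and 27, and HoxD 6, 10, 5 and 12, so HoxC did not differ most and basal TACs had no more HoxC sites than hair germ. Posterior HoxC then had 7, 9, 10 and 17, higher in suprabasal TACs and nearly the same in basal TACs and hair germ.

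**Figure D1:**
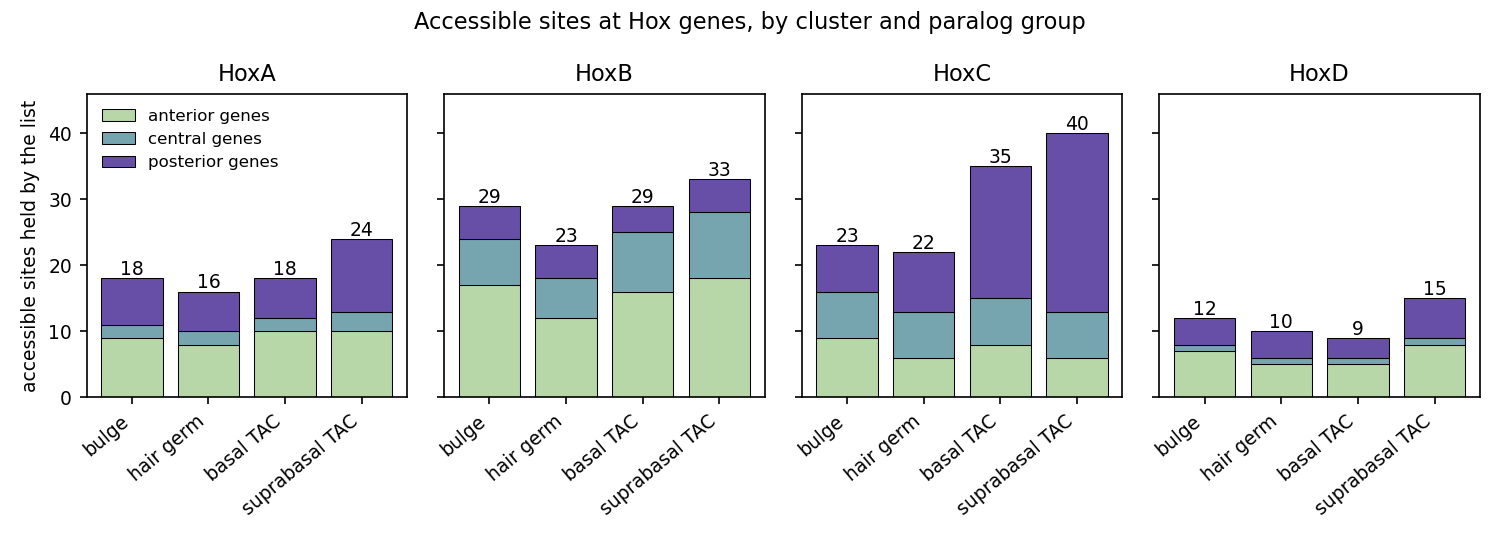
Number of accessible sites held by each list at each Hox cluster (bars, with the total above), split by anterior, central and posterior genes. In HoxC the posterior genes had 7 sites in bulge cells, 9 in hair germ, 20 in basal TACs and 27 in suprabasal TACs, while its central genes had 7 in each.

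Of the 30 posterior HoxC sites, 21 were held by anagen lists alone (70%, 95% interval 50.6 to 85.3), and none by telogen lists alone. For all other Hox sites this was 30 of 108 (27.8%, 19.6 to 37.2), and for all sites of the genome 40.8%. In the other posterior groups the anagen lists alone held 6 of 13 sites in HoxA (19.2% to 74.9%), 1 of 6 in HoxB and 1 of 6 in HoxD (0.421% to 64.1% for either), too few sites for a comparison. The anagen libraries were deeper, so the count was repeated with a demand on level. When a site had to reach the calling level of both telogen lists (the 5th percentile of level in FPM of their peaks), 14 of the 30 remained (46.7%), against 24.0% of all sites. With the 25th percentile 6 remained (20%), against 11.4%. With equal numbers of peaks per list it was 13 of 22 (59.1%), against 32.7%.

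Hoxc13 held most of the posterior HoxC sites, but sites in anagen lists alone were also found at Hoxc9, Hoxc11 and Hoxc12. Hoxc13 had 5 sites in bulge cells, 6 in hair germ, 14 in basal TACs and 19 in suprabasal TACs, of 20 in any list. Among the 16799 genes with a site, 50 exceeded this difference of 14 sites between suprabasal TACs and bulge and 17 others equalled it (0.405% of genes with Hoxc13). The difference of 8 between basal TACs and hair germ was exceeded by 337 genes, and that of 5 between suprabasal and basal TACs by 197 genes. These counts of Hoxc13 were known before the present description and are given as its base.

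The Hoxc13 sites fall into a group at the gene and a long series before it. At the start of Hoxc13 a wide site (chr15:102920482-102922704) was present in every list, with 9.77 FPM in bulge cells, 8.05 in hair germ, 5.84 in basal TACs and 3.59 in suprabasal TACs. Its level was lower in each TAC list than in telogen, as at most shared sites. The log2 ratio of suprabasal TACs to bulge was -1.44 there, against a median of -1.07 over all shared sites. The gene start was thus open in resting stem cells too, and the site number differed elsewhere. Beyond 5 kb before the start, 16 sites lay between 7.562 and 99.561 kb from it, on the side of Calcoco1, the next protein-coding gene. Of these the bulge list held 3, the hair germ 4, basal TACs 11 and suprabasal TACs 15.

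Of those 16 sites, 12 belonged to anagen lists alone: 7 to both TAC lists, 4 to suprabasal TACs and 1 to basal TACs. The level of 11 of the 12 was at or above the 5th percentile calling level of the bulge list (0.623 FPM), and of 11 it was at or above that of the hair germ list (0.814). The 25th percentiles of both lists, 1.12 and 1.45 FPM, were reached by 5. The strongest anagen-only site of the stretch (chr15:102832943-102834267, 87.5 kb before the start) had 1.36 FPM in basal TACs and 4.01 in suprabasal TACs, from pileups of 42 and 192 fragments. It was the highest HoxC site of the suprabasal list, above the gene's own start. A site at chr15:102855575-102857203, 64.7 kb before the start, had 2.51 FPM in suprabasal TACs, against 0.714 in basal TACs. The highest HoxC site held by a single TAC list (chr15:102884621-102885635, 36.0 kb before the start) had 1.92 FPM in suprabasal TACs.

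Not all distal sites were absent in telogen. A site 81.8 kb before the start (chr15:102838119-102840499) had 3.86, 4.25, 7.17 and 3.20 FPM in bulge cells, hair germ, basal and suprabasal TACs, and was the highest HoxC site of the basal TAC list. Its log2 ratio of basal TAC to hair germ was 0.75, where the median of all shared sites was -0.50. A site 58.4 kb before the start (chr15:102861997-102863556) ran the other way, with 5.78 FPM in bulge cells, 2.99 in hair germ, 0.487 in basal TACs and 1.50 in suprabasal TACs. Another, 25.3 kb before the start (chr15:102895277-102896462), had 4.11 in bulge cells and 5.16 in hair germ, no peak in basal TACs, and 0.355 in suprabasal TACs. At both of these the level was higher in each telogen list than in each TAC list.

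**Figure D2:**
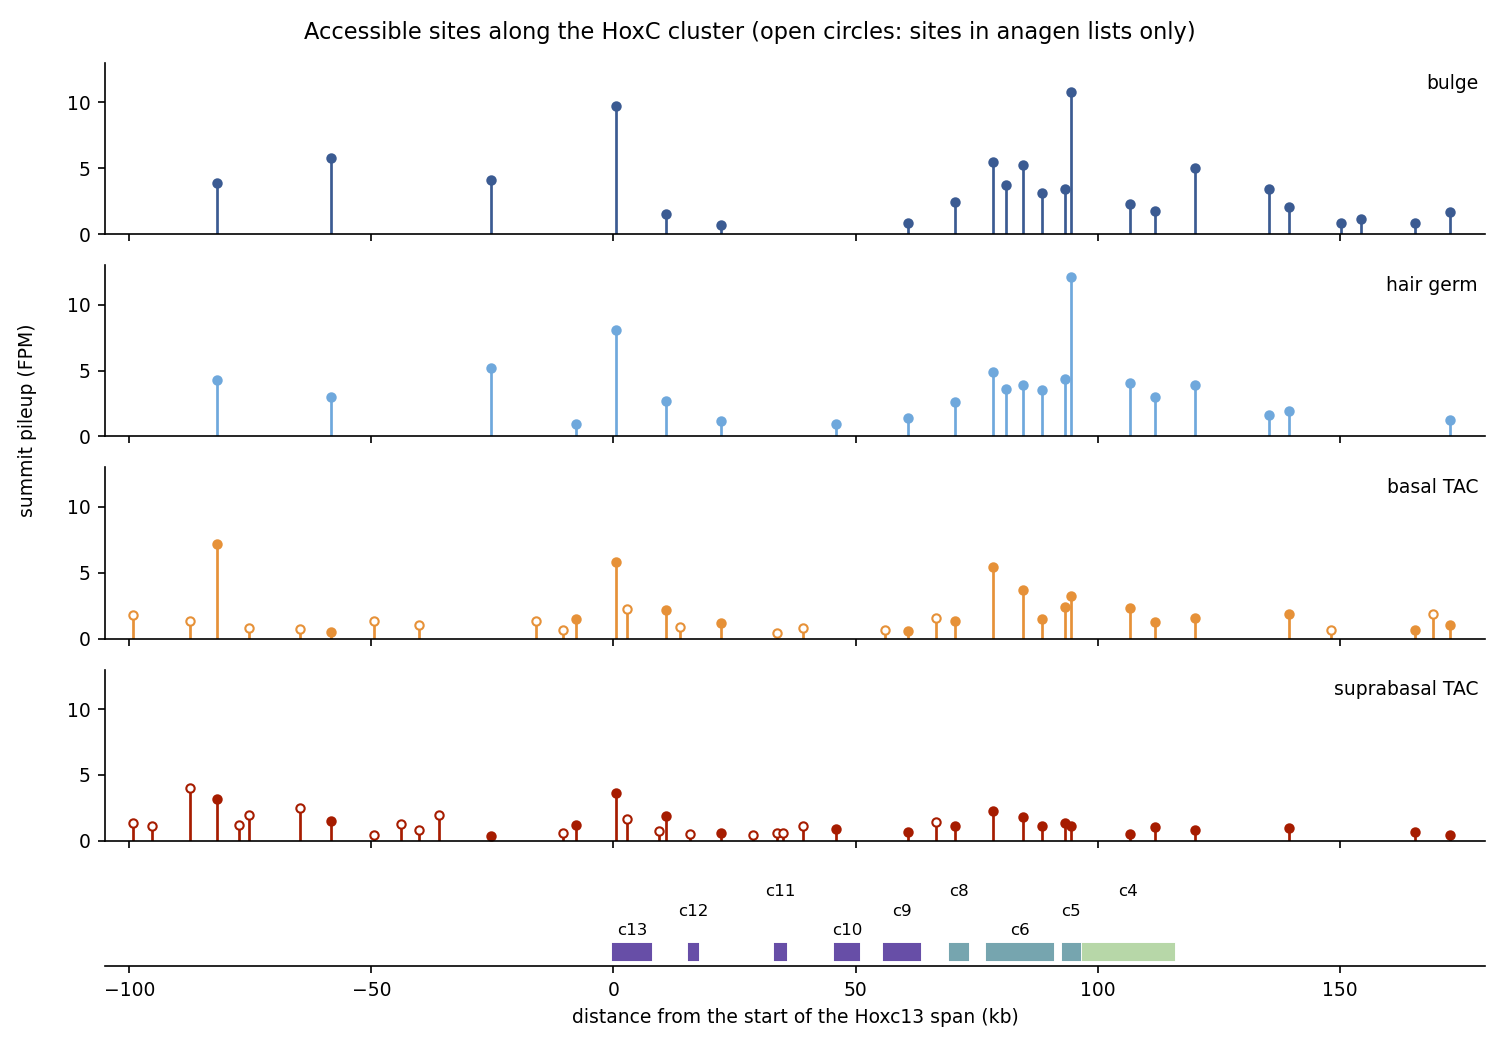
Sites of HoxC along the cluster, with 1 panel per population. The x axis is the distance in kb from the start of the Hoxc13 span, the y axis the summit pileup in FPM, and the boxes below are gene spans (purple posterior, blue-green central, light green anterior). Open circles, sites in anagen lists alone, gather left of and within the posterior genes, where the bulge and hair germ panels show few sites, and both telogen panels have their highest site at Hoxc5.

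Hoxc11, beyond Hoxc12 and known for hindlimb patterning, had 0, 0, 2 and 4 sites. All of them were weak, between 0.418 and 1.13 FPM. Hoxc12 had 1, 1, 2 and 2 sites, Hoxc10 had 0, 1, 0 and 1, and Hoxc9 had 1, 1, 2 and 1. At the far end Hoxc4 had 9 sites in bulge cells, 6 in hair germ, 8 in basal TACs and 6 in suprabasal TACs. Its strongest single-list sites lay beyond the cluster, at 1.16 FPM in bulge cells (chr15:103075330-103075725) and 1.88 in basal TACs (chr15:103090013-103090733). Hoxc4 thus had fewer sites in each TAC list than in the bulge list.

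Hoxc5 carried the highest Hox site of the telogen populations. That site inside the gene (chr15:103015105-103016012) had 10.8 FPM in bulge cells, 12.1 in hair germ, 3.21 in basal TACs and 1.13 in suprabasal TACs. The level was close between hair germ and bulge, with a log2 ratio of 0.17. It fell by 1.92 on the log2 scale in basal TACs relative to hair germ, where the median over all shared sites was -0.50, and by 3.26 in suprabasal TACs relative to the bulge, where the median over all shared sites was -1.07. Hoxc5 kept 2 sites in every list, Hoxc6 had 4, 4, 3 and 3, and Hoxc8 had 1, 1, 2 and 2. The hairpin of Mir615 lies between the 2 Hoxc5 sites, close to both and 102 bp from the other one (chr15:103013865-103014808). That other site was in all 4 lists with 3.45, 4.34, 2.43 and 1.34 FPM. Within one cluster, central HoxC had the same number of sites in every list and posterior HoxC more in both TAC lists.

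Among the highest HoxA sites were those in Hoxa3, Hoxa5 and Hoxa7 and one past the 3′ end of the posterior gene Hoxa9. Hoxa3, a gene of throat and thymus development with a span that overlaps Hoxa4, Hoxa5 and Hoxa6, had 7, 6, 8 and 8 sites in lineage order. Sites inside several spans were counted for the shortest. Its site chr6:52172437-52173875 was the highest of HoxA in bulge cells, with 7.90 FPM there, 6.15 in hair germ, 2.04 in basal TACs and 2.03 in suprabasal TACs. The site nearest to Hoxa9, a gene of blood cell development, was the highest of the hair germ, with 7.69, 9.14, 3.73 and 2.86 FPM. It lay past the 3′ end of that gene (chr6:52221378-52222406), between Hoxa7 and Hoxa9. Hoxa5 led in both TAC lists, with the promoter site whose values stand above (chr6:52203204-52205083). The sites of Hoxa3 and Hoxa9 had log2 ratios of -1.96 and -1.42 between suprabasal TACs and bulge, and the Hoxa5 site -1.01, close to the genome's median of -1.07.

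Single-list sites of HoxA were weaker. The highest were 1.45 FPM in bulge cells (Hoxa3, chr6:52185207-52185507), 0.714 in basal TACs (Hoxa3, chr6:52170350-52170625) and 1.34 in suprabasal TACs (chr6:52275621-52276854, beyond Hoxa13). Hoxa13, which patterns digits and the genital tract, had 3, 2, 1 and 4 sites, all between 0.460 and 1.34 FPM. Hoxa10 had 2, 2, 3 and 4 sites, and the hairpin of Mir196b lies 234 bp from a suprabasal-only site of it at 0.648 FPM. Hoxa6 and Hoxa11 each had 1 site, in suprabasal TACs alone, at 1.15 and 0.752 FPM. Hoxa2, Hoxa4, Hoxa5 and Hoxa7 had 1 site and Hoxa9 had 2 in every list. The suprabasal-only sites of HoxA thus lay between 0.481 and 1.34 FPM.

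In HoxB the strongest sites lay around Hoxb1, a hindbrain patterning gene at the anterior end. Hoxb1 had 5 sites in bulge cells, 4 in hair germ, 7 in basal TACs and 8 in suprabasal TACs. The farthest (chr11:96413102-96414377, 45485 bp from the gene) led the bulge and basal TAC lists, with 8.06, 6.33, 5.64 and 2.49 FPM in lineage order. A second (chr11:96403943-96405796) led the hair germ list, with 5.69, 7.06, 2.30 and 3.30 FPM. The site at the gene itself (chr11:96365984-96367178) led the suprabasal list, with 2.45, 4.43, 2.37 and 4.62 FPM. Its log2 ratio between suprabasal TACs and bulge was 0.91, and that of the farthest site -1.70. Relative to the bulge list, the suprabasal level was thus higher at the gene and lower at the distant site.

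Hoxb4 gave a similar contrast over a short distance. Its promoter was in a peak of the bulge alone, the highest bulge-only site of HoxB. The site just behind it in the gene (chr11:96319270-96320270) had 2.53 FPM in bulge cells, 2.17 in hair germ, 5.03 in basal TACs and 4.56 in suprabasal TACs. The log2 ratio of basal TACs to hair germ was 1.21 at this site, the only shared Hox site at least 2-fold higher in that comparison. The hairpin of Mir10a lies 857 bp from the bulge-only site. The highest sites of single TAC lists were 1.95 FPM in basal TACs (Hoxb2, chr11:96349642-96350096) and 1.90 in suprabasal TACs (Hoxb3, chr11:96308278-96309043). Hoxb3, whose span covers Hoxb4, had 8, 6, 5 and 7 sites in lineage order. Hoxb2 had 2, 1, 3 and 2, Hoxb5 had 2, 2, 2 and 1, Hoxb6 had 3, 2, 4 and 5, Hoxb7 had 1 in each, and Hoxb8 had 1, 1, 2 and 3. At the posterior end Hoxb9 had 5, 5, 4 and 4 sites, and Hoxb13 had a single site, in suprabasal TACs, at 0.836 FPM.

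HoxD had the lowest median level of the 4 clusters in each list, at 0.977, 1.18, 0.908 and 0.752 FPM in bulge cells, hair germ, basal and suprabasal TACs. HoxC had 3.16, 3.26, 1.33 and 1.11. The highest HoxD site of the bulge and hair germ lay in Hoxd8 (chr2:74704815-74706118), with 3.32, 2.99, 1.2 and 1.40 FPM. Hoxd1, at the anterior end, led in basal TACs (chr2:74762667-74763590) with 2.83, 2.35, 1.46 and 1.50. A site beyond Hoxd3 (chr2:74749242-74750380), a gene of neck skeleton patterning, led in suprabasal TACs with 1.58, 2.08, 1.2 and 1.99. Hoxd3 had 5, 3, 3 and 6 sites in lineage order, and the highest single-list sites of HoxD were both counted for it. They had 0.582 FPM in bulge cells (chr2:74753064-74753307) and 0.731 in suprabasal TACs (chr2:74721246-74722121). The suprabasal site covers the Hoxd4 promoter window, but its midpoint lies before the Hoxd4 span and inside that of Hoxd3, which overlaps Hoxd4. The other HoxD genes had few sites: Hoxd4, Hoxd8, Hoxd9 and Hoxd1 had 1 in each list, Hoxd10 had 1, 0, 1 and 2, Hoxd11 had 2, 2, 1 and 2, and Hoxd13 had 0, 1, 0 and 1. The hairpin of Mir10b lies 541 bp from the Hoxd4 site, which had 0.499, 0.814, 0.811 and 0.752 FPM.

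**Figure D3:**
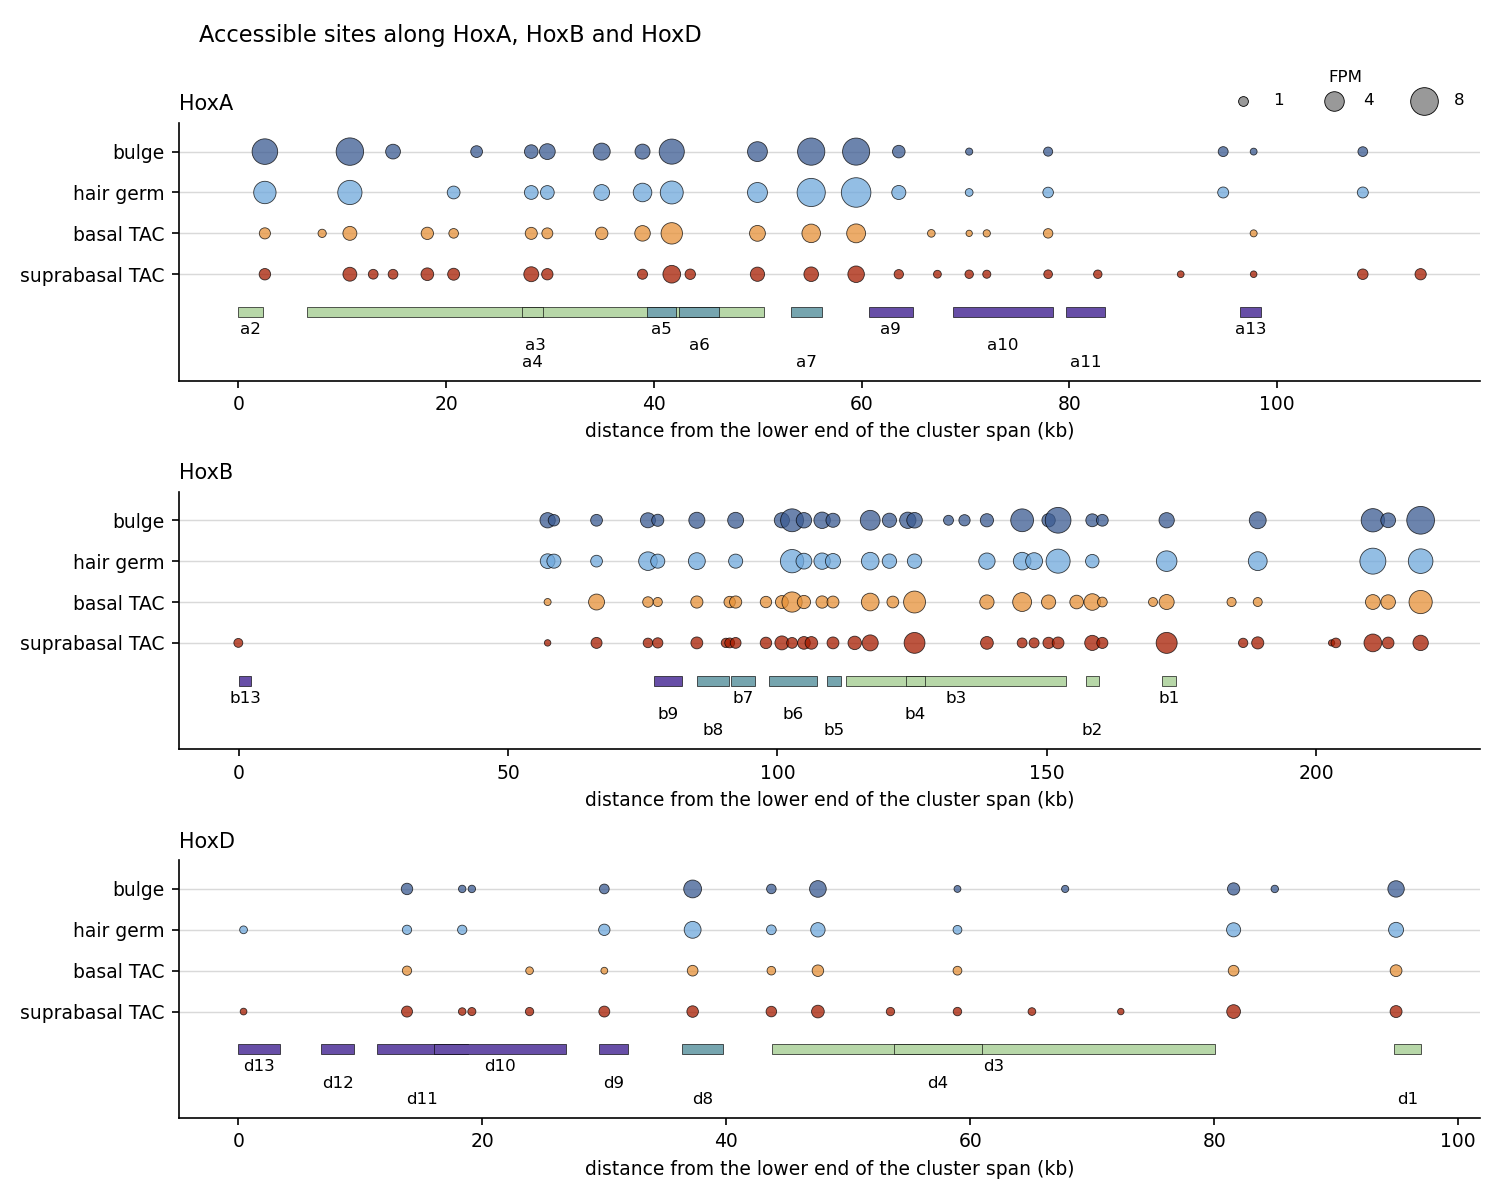
Sites of HoxA, HoxB and HoxD by distance in kb from the lower end of each cluster span, with 1 row per population. The circle area follows the summit level in FPM, and boxes are gene spans (purple posterior, blue-green central, light green anterior). HoxA and HoxB have large circles in every population, those of HoxA over the anterior and central genes and between Hoxa7 and Hoxa9, and HoxD circles are small throughout.

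Hair germ was first set against bulge, both in telogen. The hair germ list alone held 5 Hox sites and the bulge list alone 16, of 87 in either. Over all sites 9.92% were in hair germ alone and 19.7% in bulge cells alone, and the hair germ library was the shallower. The hair germ share of changed Hox sites was 23.8% (8.22 to 47.2), against 33.5% for all changed sites. At the 66 shared sites the median log2 ratio of hair germ to bulge was 0.09, against -0.01 over all shared sites, and by the authors' fold enrichment the Hox median was -0.023. None was 2-fold higher in hair germ (5.79% of all shared sites) and 1 was 2-fold lower (5.14%), a site of Hoxc4 with 1.63 FPM in hair germ and 3.41 in bulge. Of the 37 genes with a site, 3 had more sites in hair germ (12.6% of all genes) and 10 fewer (27.9%). The ratios at shared Hox sites lay between -1.07 and 0.85.

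Basal TACs were then set against hair germ, which spans the step into anagen. Basal TACs alone held 33 Hox sites and hair germ alone 13, of 104 in either, where 38% and 15.2% of all sites did so. The basal TAC share of changed sites, 71.7% (56.5 to 84.0), lay near the genome's 71.3%. HoxC had 17 sites in basal TACs alone and 4 in hair germ alone, HoxB 10 and 4, HoxA 5 and 3, and HoxD 1 and 2. By genes, 13 had more sites in basal TACs (47.6% of all genes) and 7 fewer (12.8%). The median log2 ratio at the 58 shared sites was -0.66, against -0.50 over all shared sites. The site inside Hoxb4 was 2-fold higher (7.75% of all shared sites were) and 17 sites were 2-fold lower (24.1%). In HoxA none of the 13 shared sites was higher in basal TACs, where 28.3% of all shared sites were. Of those within HoxA's range of hair germ levels (0.633 to 9.14 FPM, 35382 of 41254 sites) 32.6% were. Scaled by common sites the HoxA median was -0.21, against -0.05 for all shared sites.

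Between the TAC layers, suprabasal TACs alone held 34 Hox sites and basal TACs alone 13, of 125 in either. Over all sites 22.7% were in suprabasal TACs alone and 27.4% in basal TACs alone. The suprabasal share of changed Hox sites was 72.3% (57.4 to 84.4), against 45.4% for all changed sites. All clusters had more sites in suprabasal TACs alone than in basal TACs alone: HoxA 9 and 3, HoxB 9 and 5, HoxC 10 and 5, and HoxD 6 and 0. Requiring the calling level of the other list (5th percentile) left 27 and 13. By genes, 16 had more sites in suprabasal TACs (30.9% of all genes) and 4 fewer (30.5%). The median log2 ratio at the 78 shared sites was -0.21, against -0.57 over all shared sites, and 0.52 against 0.16 when levels were scaled by the sites common to all lists. It was 2-fold or more higher at 5 sites (3.75% of all shared sites) and lower at 12 (27.5%). Of the 5 sites, 4 belonged to Hoxc13 and 1 to Hoxd9.

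Across the whole lineage, suprabasal TACs alone held 45 Hox sites and the bulge alone 15, of 127 in either. Over all sites these were 34.9% and 25.5%. The suprabasal share of changed Hox sites was 75% (62.1 to 85.3), against 57.8% for all changed sites. In HoxC it was 21 sites in suprabasal TACs alone and 4 in bulge cells alone, a share of 84% (63.9 to 95.5). HoxB had 10 and 6, HoxA 9 and 3, and HoxD 5 and 2. By genes, 17 had more sites in suprabasal TACs (43.4% of all genes) and 6 fewer (21.6%). At the 67 shared sites the median log2 ratio was -0.85, against -1.07 over all shared sites, and with the scaling by common sites 0.29 against 0.08. None was 2-fold higher (4.54% of all shared sites) and 28 were 2-fold lower (52.8%).

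The clusters differed in these ratios. Between suprabasal TACs and bulge the medians were -0.95 in HoxA, -0.61 in HoxB, -1.37 in HoxC and 0.15 in HoxD. Scaled by common sites they were 0.20, 0.53, -0.22 and 1.3, against 0.08 for all shared sites, so HoxA and HoxB changed sign. This scaling shifts all ratios of a comparison by the same amount, so the order of the clusters could not change. In HoxD 6 of 10 shared sites were higher in suprabasal TACs, against 16.3% of all shared sites. Its sites are weak in bulge cells. Among all shared sites within their range of bulge levels (0.499 to 3.32 FPM), 30.8% were higher, with a median of -0.49. These sites were taken by that range alone and not matched level by level. Between suprabasal and basal TACs 8 of 9 shared HoxD sites were higher, with a median of 0.28. Over all shared sites 21.1% were higher. Of those within HoxD's range of basal TAC levels (0.487 to 1.46 FPM) 40.1% were, with a median of -0.19. HoxC stood at the other end, with 18 of 19 shared sites lower in suprabasal TACs than in bulge cells.

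**Figure D4:**
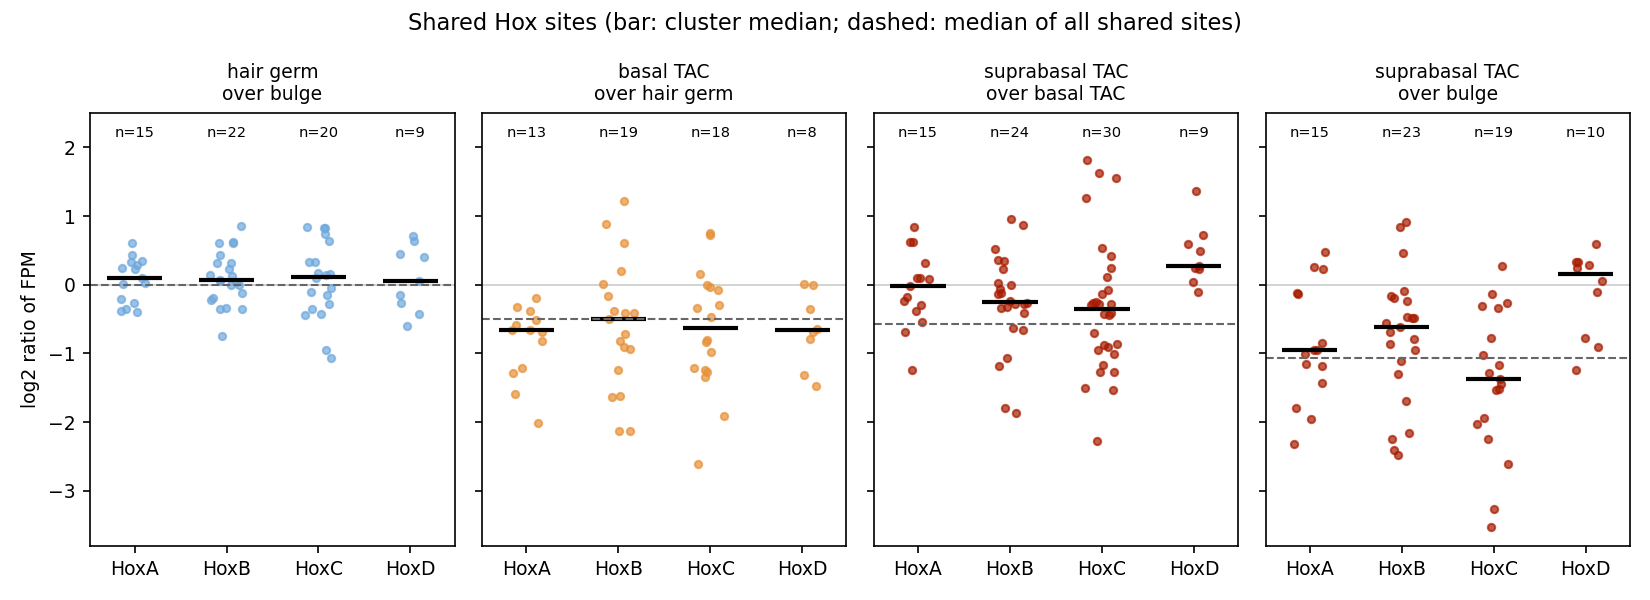
The log2 ratio of level in FPM at each Hox site shared by the 2 lists of a comparison (points, side by side for visibility), by cluster, with the cluster median (bar), the number of sites (n) and the median of all shared sites of the genome (dashed line). Suprabasal TAC over bulge shows HoxC at a median of -1.37 and HoxD at 0.15, on either side of the genome's -1.07.

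HOX proteins bind DNA together with TALE-class partners such as MEIS proteins, and Polycomb and Trithorax proteins hold the clusters silent or active. Between suprabasal TACs and bulge, 1 of 9 TALE genes had more sites and 7 had fewer, where 43.4% of all genes with a site had more and 21.6% fewer. Meis2 had 12, 9, 13 and 6 sites in lineage order. The 14 Polycomb and Trithorax genes had 47, 44, 62 and 77 sites, with more in suprabasal TACs than in bulge cells at 9 genes and fewer at 2, against the same shares of all genes. Jarid2, a subunit of a Polycomb complex, had 11, 8, 18 and 27 sites. Of the upstream homeobox genes, Cdx1 and Cdx4 had no site and Cdx2 had 1, 2, 2 and 3. The 9 genes next to the clusters had 58, 42, 62 and 77 sites, and Calcoco1, beyond the Hoxc13 flank, had 14, 13, 17 and 17.

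Markers of the sorted populations followed the labels in part by site number. Bulge markers (6 genes) had 100, 85, 80 and 66 sites in lineage order, the most in bulge cells. Hair germ markers (3 genes) had 38, 37, 44 and 47, the fewest in hair germ. Basal TAC markers (4 genes) had 31, 34, 47 and 65, the most in suprabasal TACs. Suprabasal TAC markers (5 genes) had 25, 22, 35 and 50, of which 5, 6, 14 and 19 were those of Hoxc13 itself. Sites of other cell types also moved. Immune markers (5 genes) had 3, 5, 13 and 13 sites, with 4, 4, 1 and 0 genes at none. Fibroblast markers (6 genes) had 19, 12, 22 and 25, with 2, 1, 0 and 2 genes at none (Lum and Col3a1 in both the bulge and suprabasal lists). Melanocyte markers (5 genes) had 31, 22, 32 and 30, with Tyr at none in every list. Endothelial markers (5 genes) had 35, 32, 40 and 23, with Tek and Emcn at none in suprabasal TACs. The part of such cells in the Hox site numbers was not tested.

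By position, 75 of the 138 Hox sites lay inside a Hox gene span (54.3%), 8 within 1 kb of one (5.80%) and 55 farther away (39.9%). Over all sites assigned to a gene these shares were 62.3%, 3.71% and 34.0%. Of the sites farther away, 29 were in anagen lists alone and 15 in all 4 lists, and inside a gene span 19 were in anagen lists alone and 36 in all 4. The genome's shares of these classes by position were not computed, so the counts are not read as particular to Hox sites. HoxC differed from the other clusters, with 17 sites inside genes and 32 farther away. The 100 kb limit removed no peak, since farther ones are nearer to another gene. The outermost members were peaks of Hoxc13, with 1.32 FPM in suprabasal TACs at 99.27 kb, 1.75 in basal TACs at 99.259 kb and 1.15 in suprabasal TACs at 95.391 kb.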

How the data were processed

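ATAC-seq of 8 samples (2 for each of 4 populations) was available as 4 peak lists, each from both samples pooled. Per the file headers, the authors ran MACS 2.1.1.20160309 in its paired-end mode with no control, keeping duplicates, with a q-value cutoff of 0.05 and a 10 kb local background. The alignment names there speak of pooling, removed duplicates and a filter. The submitters' processing notes also name Bowtie2 2.2.9, Picard and mm10. No source used here tells of a shift of read ends. Each deposited peak carries a length, a summit pileup (the authors' coverage signal, not scaled for depth), significance as −log10 of p and of q, and the authors' fold enrichment over local background. The −log10 columns lost their names in the deposited files and were told apart by place.

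From these, peaks of the mitochondrial and Y chromosomes were dropped, overlapping peaks (1 bp) were merged into sites, and pileup was divided by the header's fragment total and multiplied by 1000000 (FPM, from the highest peak of a list at a site). Gene spans came from a RefSeq table of GRCm38.p6 with 21631 protein-coding genes. It gives no exons, so exon and intron were not separated. A site in just 1 list of a pair was called changed, and a shared site was counted as higher or lower from a 2-fold ratio. The members, lists and paralog groups were chosen with earlier results of these data known. All 38 members are accounted for by site number. Named with values were Hoxc13, members whose site number differed by 3 or more in a comparison, those with the highest site of a cluster in a population or without a site, and the highest single-list sites of each cluster. Further genes named for a contrast (Hoxb4, Hoxd9, Hoxd10 and others) were chosen after their values were seen. The merging and counting were tested on simulated data. Python 3.11.15, numpy 2.4.6, pandas 2.3.3, scipy 1.17.1 and matplotlib 3.10.9 were used.

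Alternatives were a −log10 q of 10 or more, equal numbers of peaks per list (56536, the strongest by q-value), a 20 kb limit, an overlap of at least 50%, absence scaled for depth, scaling by common sites, the authors' fold enrichment in place of pileup, and leaving out the gene with most changed sites. The lists differ in depth, and a peak's absence is a limit of detection and not a measured closure.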

Additional observations from a re-analysis of the deposited data

How the results depend on the processing

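Of 186 values recomputed for 49 results, 133 stayed within the limits set (counts within 1.5 times), 50 moved and 3 reversed. No paired analysis was possible because each population has 1 pooled list, and for the same reason no replicate could be left out. The reversals concern the median log2 ratio at shared Hox sites. For hair germ against bulge it was -0.023 by the authors' fold enrichment. Scaled by the genome's common sites it was 0.52 for suprabasal against basal TACs and 0.29 for suprabasal TACs against bulge. The same scaling moved the median of all shared sites to 0.16 and 0.08 (and to -0.05 for basal TACs against hair germ and -0.04 for hair germ against bulge). It shifts every ratio of a comparison by the same amount. It therefore cannot change whether a Hox median lies above or below the genome's. For basal TACs against hair germ the Hox median was -0.21 with that scaling and -0.013 by fold enrichment, and for suprabasal TACs against bulge it was -0.41 by fold enrichment. The direction of levels thus depends on the scaling.

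At −log10 q of 10 or more, Hox sites numbered 39 in hair germ, 58 in basal TACs and 70 in suprabasal TACs. By cluster the counts that moved were 11, 8, 11 and 13 in HoxA (lineage order), 13 in hair germ and 19 in basal TACs in HoxB, 14, 22 and 24 in HoxC in hair germ, basal and suprabasal TACs, and 6, 4 and 9 in HoxD in bulge, hair germ and suprabasal TACs. Posterior HoxC then had 5, 11 and 15 in hair germ, basal and suprabasal TACs, 15 of 20 sites in anagen lists alone (75%, against 40.6% of all sites). The hair germ share of changed sites against bulge was 4.55%, against 15.0% of all changed sites. Covered shares became 4.90% for HoxB in hair germ, 7.64% for HoxC in suprabasal TACs, and 3.27% and 5.38% for HoxD in hair germ and basal TACs.

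With equal numbers of peaks, basal TACs held 54 Hox sites (HoxA 11, HoxB 17, HoxC 21, HoxD 5, covering 4.43% of HoxD) and the bulge 6 in HoxD. Posterior HoxC had 10 in basal and 17 in suprabasal TACs, 13 of them in anagen lists alone. The share of changed Hox sites in basal TACs against hair germ became 29.3%, against 51.9% of all changed sites, so it turned from near the genome's to below it. It was 47.4% for hair germ against bulge, where the genome's was 46.8%, and 58.9% for suprabasal TACs against bulge, where it was 49.7%, so both lay closer to the genome's than in the lists as deposited. Within 20 kb, HoxC had 15, 22 and 24 sites in bulge, basal and suprabasal TACs, and posterior HoxC 4, 12 and 14, with 11 of 17 in anagen lists alone (64.7%). Absence scaled for depth at the 25th percentile left 6 posterior HoxC sites in anagen lists alone, and shares of 50% for basal TACs against hair germ, 56% for suprabasal against basal TACs and 59.4% for suprabasal TACs against bulge, against 53.0%, 20.2% and 29.8% of all changed sites. With an overlap of 50%, depth scaling at the 5th percentile or the gene with most changed sites left out, all results tried stayed within the limits set. Depth scaling at the 5th percentile still lowered the posterior HoxC sites in anagen lists alone from 21 to 14 of 30, at the edge of those limits. Their share fell from 70% to 46.7%, and that of all sites from 40.8% to 24.0%. The cause of these shifts was not tested. The hair germ list has the fewest fragments, and a site absent from a list may lie below its calling level.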
